A study of Arabidopsis thaliana with 4 samples.

Results

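The pseudo-response regulator (PRR) genes TOC1, PRR3, PRR5, PRR7 and PRR9, the evening-complex genes ELF3, ELF4 and LUX, and GIGANTEA (GI) are core genes of the Arabidopsis circadian clock. They were taken by their locus codes, and each of the 9 had 1 of the 27416 gene models in the deposited values. Transcripts were sequenced from whole seedlings of the Col-0 accession that were either mutant in phytochrome B (phyB) or wild type (WT), to find the genes that depend on this red-light receptor. The labels name no allele of the mutant. All seedlings had 4 days of cold at 4 °C, grew on MS medium with 1% sucrose, first for 12 h in white light and then for 4 days in red light of 60 μmol per m2 per s, and were 4.5 days old. Both genotypes have 2 samples in the labels, but for each genotype there is a single read count and a single RPKM per gene (reads scaled by coding length and by the total of the column). No value therefore has a spread between replicates, and no test between genotypes was possible.

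The plant clock is a loop of repressors that follow each other through the day. The MYB factors CCA1 and LHY act around dawn, and PRR9, PRR7, PRR5 and TOC1 then repress them in turn from morning to evening. In the evening the complex of ELF3, ELF4 and LUX represses PRR9 and the growth-promoting genes PIF4 and PIF5, while GI stabilises the F-box protein ZTL, which marks TOC1 and PRR5 for breakdown. Light reaches this loop partly through phytochromes, and phyB protein is known to bind ELF3. Many evening genes carry the evening element, the letters AAAATATCT, to which clock MYB factors bind.

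The upstream sequences are shown for PRR9, among the genes with the lowest ratios of mutant to wild type, and for PRR3, whose ratio was the highest. Sequences are those of the TAIR10.1 reference with RefSeq genes, read 5′ to 3′ on the strand of the gene, and cover the 250 bases before the annotated gene start. Capitals mark matches on either strand to the evening element or its core AATATCT, to the CCA1-binding site AAAAATCT, to the LUX-binding site in its forms GATACG and GATTCG, to the G-box CACGTG and to the PBE-box CATGTG, which PIF proteins bind. The core is contained in the evening element, so every evening element is also counted as a core. For PRR9 the stretch is chr2:19232357-19232606 on the plus strand, and for PRR3 it is chr5:24201416-24201665 on the minus strand.
PRR9: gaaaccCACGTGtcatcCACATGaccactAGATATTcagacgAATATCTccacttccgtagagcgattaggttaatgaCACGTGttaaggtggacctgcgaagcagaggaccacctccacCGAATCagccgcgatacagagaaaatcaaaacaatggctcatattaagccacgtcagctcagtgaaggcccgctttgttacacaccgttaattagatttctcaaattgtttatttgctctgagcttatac
PRR3: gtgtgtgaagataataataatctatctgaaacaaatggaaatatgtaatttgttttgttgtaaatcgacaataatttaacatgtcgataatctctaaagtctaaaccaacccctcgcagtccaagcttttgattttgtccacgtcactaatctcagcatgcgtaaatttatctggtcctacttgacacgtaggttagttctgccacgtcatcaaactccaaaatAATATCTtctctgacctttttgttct

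PRR9 held a pair of cores in opposite orientation close together, at bases -221 to -202. It also held 2 G-boxes, 1 PBE-box and 1 LUX-binding site. PRR3 held a single core at -26 and no other match in this stretch.

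The full evening element was found in 6 of the 9 genes, at 11 places between 1000 bases before and 50 bases after the start (150 bases for PRR5). The 11 sites are printed with 10 bases on either side, the element in capitals, on the strand of the gene. In TOC1 the stretch is chr5:24674802-24674830 (plus strand), in PRR9 chr2:19232623-19232651 (plus), in LUX chr3:17182979-17183007 (plus) and in ELF4 chr2:16735471-16735499 (minus). In GI the 3 stretches are chr1:8060932-8060960, chr1:8060964-8060992 and chr1:8061150-8061178 (plus), and in PRR5 the 4 stretches are chr5:8359807-8359835, chr5:8359244-8359272, chr5:8358820-8358848 and chr5:8358715-8358743 (minus).
TOC1 at -151: aaatatcatgAGATATTTTctccaagatg
PRR9 at 27: ttctctgagaAGATATTTTcgtggttgtg
LUX at -53: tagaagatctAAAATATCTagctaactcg
ELF4 at -536: atactacaaaAAAATATCTtgcggattat
GI at -809: gtaagattttAAAATATCTtaaaagatgt
GI at -777: aggcccatttAGATATTTTctcaacgggc
GI at -591: agctcccctcAAAATATCTgtggacatat
PRR5 at -952: acccaacaacAAAATATCTagccgcggaa
PRR5 at -389: cactagcattAGATATTTTttgggtttgg
PRR5 at 36: caattctactAGATATTTTttcaaatcca
PRR5 at 141: gattttttctAGATATTTTcttttctcca

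PRR5 positions count from a different base. The deposited PRR5 model has a coding length of 2004 nt and the RefSeq model 1677 nt, with no untranslated part annotated. The reading frame is open for the 327 nt in between and begins with a start codon at position 8358873 of chromosome 5, from which PRR5 positions are counted. Where transcription of PRR5 starts is thus not known from this annotation, and 2 of its 4 evening elements lie inside the deposited coding sequence. PRR5 was left out of the motif shares.

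Over the 23174 genes with an annotated 5′ untranslated part and a full window, 7.4% held an evening element in the 1000 bases before the start, and 4 of the other 8 clock genes did (TOC1, ELF4, LUX and GI). Within 250 bases before and 50 after the start the element stood in 3.02% of genes and in 3 of the 8 (TOC1, PRR9 and LUX). The core stood in 11.9% of these shorter windows and in 6 of the 8, the G-box in 8.39% and in 3 (PRR7, PRR9 and LUX). The A form of the LUX-binding site stood in 5.56% and in 2 of the 8, the T form in 9.57% and in PRR9, and the PBE-box in 13.2% and in PRR9. The CCA1-binding site stood in 8.14% and in none of the 8. A match describes letters and not a bound site.

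**Figure D1:**
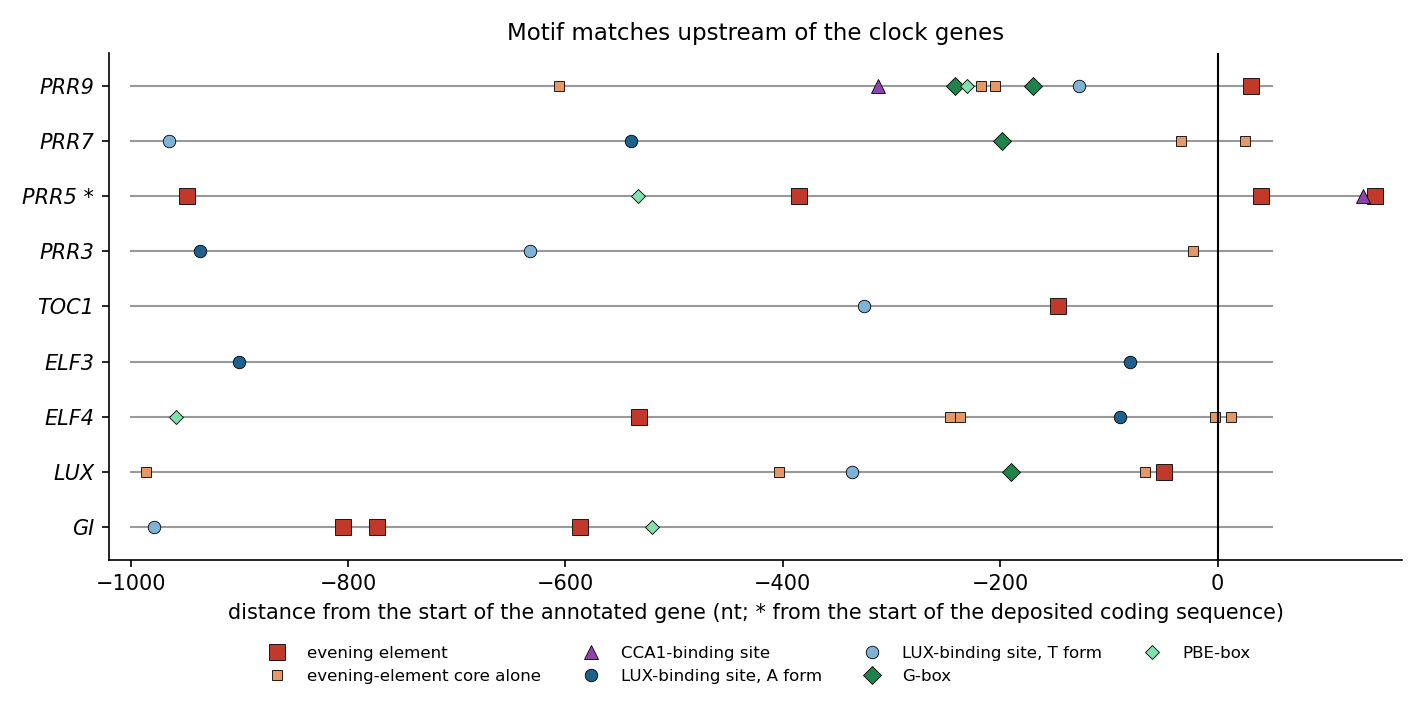
Matches to 7 motifs in the 9 clock genes, 1 line per gene, by distance from the annotated gene start in nt. The window runs from 1000 nt before to 50 nt after the start, and to 150 nt after the start of the deposited coding sequence for PRR5. Red squares are the 11 evening elements, 4 of them in PRR5 and 3 in GI, and none lie in PRR7, PRR3 or ELF3.

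The phyB column held 33201394 reads and the WT column 33521717. Clock-gene models took 12471 reads in phyB and 18111 in WT, which is 0.0376% and 0.054% of the totals, and single models had between 206 and 4563 reads. PHYB itself was at 14.1 RPKM in phyB and 36.3 RPKM in WT. Green-tissue, root, vascular and dividing-cell markers were all detected, and none of the 24 that averaged 1 RPKM or more differed 2-fold. Only the titles of the WT samples carry a word for a repeated analysis, and the time of day of the harvest was not given in the sources used here. A batch, a difference in harvest time and the genotype cannot be told apart in these values, which matters for genes whose transcripts cycle daily. A lower level can likewise mean fewer cells that express a gene or less RNA per cell.

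Of the 9 clock genes 8 were lower in phyB and 1 was higher. The shares over all 19296 genes that averaged 1 RPKM or more were 51% with a ratio below 0, 2.18% at least 2-fold lower and 3.2% at least 2-fold higher. PRR5 and ELF4 were at least 2-fold lower and none was 2-fold higher. The median log2 ratio of RPKM, phyB over WT, was -0.63 over the 9 clock genes and -0.01 over all genes. For the 8 lower genes the exact 95% interval from the read counts lay wholly below 0, as it did for 32% of all genes. This interval covers counting error only, and reads copied by PCR are not independent molecules.

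**Figure D2:**
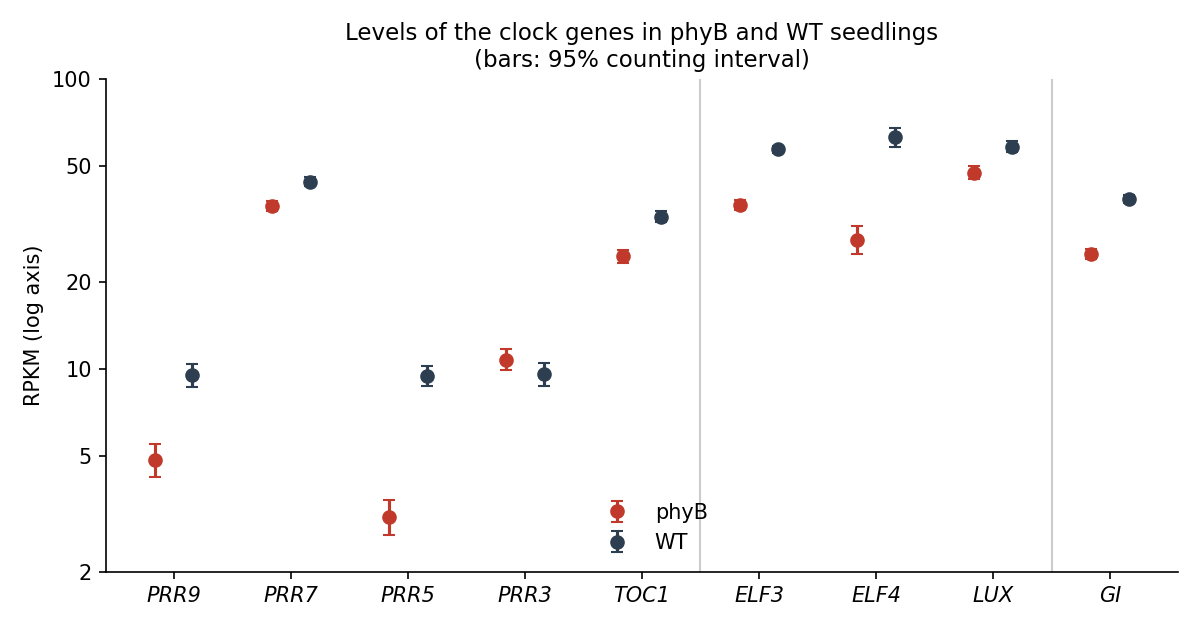
Level of each clock gene in RPKM on a log axis, in phyB (red) and WT (dark), with exact 95% counting intervals as bars. PRR genes stand at the left, the evening complex in the middle and GI at the right. All genes but PRR3 lie lower in phyB, and the 3 evening-complex genes that lie close together in WT at 57.2 to 63.0 RPKM are spread from 27.9 to 47.6 RPKM in phyB.

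Among the PRR genes, PRR5 showed the largest difference. PRR5 (AT5G24470, chromosome 5, 8356204 to 8358546 on the minus strand in RefSeq) is a repressor of CCA1 and LHY that acts after PRR9 and PRR7. The deposited model, to which the values belong, has its coding start at 8358873, outside that span. PRR5 was at 3.10 RPKM in phyB (206 reads) and 9.48 RPKM in WT (637 reads). The log2 ratio was -1.61 with a counting interval from -1.85 to -1.39, so that phyB had 32.7% of the WT level. Only 0.684% of all genes had a ratio as low or lower. PRR5 was also the only one of the 9 whose interval lay wholly beyond 2-fold, a condition met by 1.01% of all genes in the lower direction.

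PRR9 (AT2G46790, chromosome 2, 19232607 to 19235179 on the plus strand), the earliest of the wave, was at 4.86 RPKM in phyB (227 reads) and 9.54 RPKM in WT (450 reads). Its log2 ratio of -0.97, with an interval from -1.21 to -0.74, was just short of 2-fold. Its sequence is not unique. Bases 871 to 1407 of its coding sequence hold 438 stretches of 36 nt that also occur in AT2G46670, a gene on chromosome 2 (19164357 to 19165233, minus strand), and these were 31.9% of all such stretches in PRR9. Reads from them could have been divided between both genes. AT2G46670 was at 3.11 RPKM in phyB and 4.70 RPKM in WT. With its reads added to those of PRR9, the sums were 284 reads in phyB and 537 in WT, with a log2 ratio of -0.91.

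PRR7 and TOC1 were the most abundant of the family and differed less. PRR7 (AT5G02810, chromosome 5, 637681 to 642030, minus strand), which acts with PRR9 in the morning, was at 36.5 RPKM in phyB and 44.3 RPKM in WT (log2 ratio -0.28, interval -0.36 to -0.21). TOC1 (AT5G61380, chromosome 5, 24674963 to 24678550, plus strand), the evening member that closes the wave, was at 24.5 RPKM in phyB and 33.5 RPKM in WT (log2 ratio -0.45, interval -0.55 to -0.36). A ratio at or below that of PRR7 was seen in 22.7% of all genes, and at or below that of TOC1 in 11.9%.

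PRR3 (AT5G60100, chromosome 5, 24197971 to 24201415, minus strand), whose protein binds TOC1 and shields it from ZTL, was the exception. It was at 10.8 RPKM in phyB (562 reads) and 9.60 RPKM in WT (505 reads). Its log2 ratio of 0.17 had an interval from -0.01 to 0.34 that just held 0. That depended on the scaling, since the interval began at 0.06 with the trend on coding length removed, at 0.04 with upper-quartile factors and at 0.01 with median scaling. PRR3 is described as a gene of the vasculature. Of the 9 vascular markers 7 had ratios below 0, against 51% of all genes, and none differed 2-fold. Their summed levels were 278.3 RPKM in phyB and 314.0 RPKM in WT.

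In WT the genes PRR3, PRR9 and PRR5 were at nearly the same level, 9.60, 9.54 and 9.48 RPKM, with overlapping counting intervals. In phyB these 3 stood apart, at 10.8, 4.86 and 3.10 RPKM, with intervals that did not overlap. PRR5 made up 3.88% of the summed RPKM of the family in phyB and 8.9% in WT, PRR9 6.09% and 8.96%, and PRR3 13.5% and 9.02%. PRR7 made up 45.8% in phyB and 41.6% in WT. The sum itself was 79.7 RPKM in phyB and 106.5 RPKM in WT. The level of PRR9, and so its likeness to PRR3 and PRR5 in WT, depends on how reads shared with AT2G46670 were assigned. That gene had 57 reads in phyB and 87 in WT, which are not in the PRR9 level.

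Ratios between genes within a column do not depend on a constant by which the column is scaled. They do depend on the trend on coding length, which was left in here. Its removal moved the log2 ratios of the clock genes by between -0.29 and 0.21. The level of PRR5 was 0.287 times that of PRR3 in phyB and 0.988 times in WT, a log2 change of -1.78 with a counting interval from -2.08 to -1.49. PRR5 relative to TOC1, the pair whose proteins ZTL breaks down, was at 0.126 in phyB and 0.283 in WT (log2 change -1.16). PRR7 relative to TOC1 was the most alike, at 1.49 in phyB and 1.32 in WT (log2 change 0.17, interval 0.05 to 0.29). For all 10 pairs of PRR genes and all 3 pairs of evening-complex genes the 95% interval of this change excluded 0, without adjustment over the 13 pairs and for counting error only. How often other pairs of genes do so was not counted, so whether this is particular to the clock genes was not tested.

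The 3 genes of the evening complex were lower in phyB by unequal amounts. ELF4 (AT2G40080, chromosome 2, 16734294 to 16734953, minus strand), a small protein that helps ELF3 act in the nucleus, was at 27.9 RPKM in phyB (311 reads) and 63.0 RPKM in WT (710 reads). Its log2 ratio was -1.18, with an interval from -1.37 to -0.98, and 1.48% of all genes were as low or lower. ELF3 (AT2G25930, chromosome 2, 11058944 to 11063324, plus strand), the scaffold of the complex, was at 36.7 RPKM in phyB (2546 reads) and 57.2 RPKM in WT (4003 reads), with a log2 ratio of -0.64 and an interval from -0.71 to -0.57. LUX (AT3G46640, named PCL1 in RefSeq, chromosome 3, 17183042 to 17186959, plus strand), the DNA-binding member, was at 47.6 RPKM in phyB (1542 reads) and 58.4 RPKM in WT (1910 reads), with a log2 ratio of -0.29 and an interval from -0.39 to -0.20.

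ELF3 overlaps an antisense RNA gene over 183 nt and the last 24 nt of ALPHA-VPE on the opposite strand. LUX overlaps AT3G46650 on the opposite strand over 1507 nt. Whether the counting used strand was not given in the sources used here. ALPHA-VPE was at 4.99 RPKM in phyB and 3.59 RPKM in WT, and AT3G46650 at 0.668 RPKM in phyB and 0.935 RPKM in WT, both far below the clock gene they overlap. The antisense RNA gene had no value.

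The order of levels within the complex differed between genotypes. In WT, ELF4, LUX and ELF3 stood in this order at the top of the 9 clock genes, and the counting interval of each overlapped that of the next. In phyB the order was LUX, ELF3 and ELF4. LUX stood above ELF3 beyond counting error, ELF3 shared its level with PRR7, and ELF4 followed PRR7, at a level shared with GI. The level of ELF4 was 0.585 times that of LUX in phyB and 1.08 times in WT, a log2 change of -0.88 with an interval from -1.10 to -0.66. ELF4 supplied 24.8% of the summed RPKM of the complex in phyB and 35.3% in WT, LUX 42.4% and 32.7%, and ELF3 32.7% and 32%.

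GI (AT1G22770, chromosome 1, 8061751 to 8067790, plus strand) was at 25.0 RPKM in phyB (2920 reads) and 38.6 RPKM in WT (4563 reads). Its log2 ratio was -0.63 with an interval from -0.70 to -0.56, nearly that of ELF3. Both belonged to the lowest 6.1% of all genes by ratio.

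**Figure D3:**
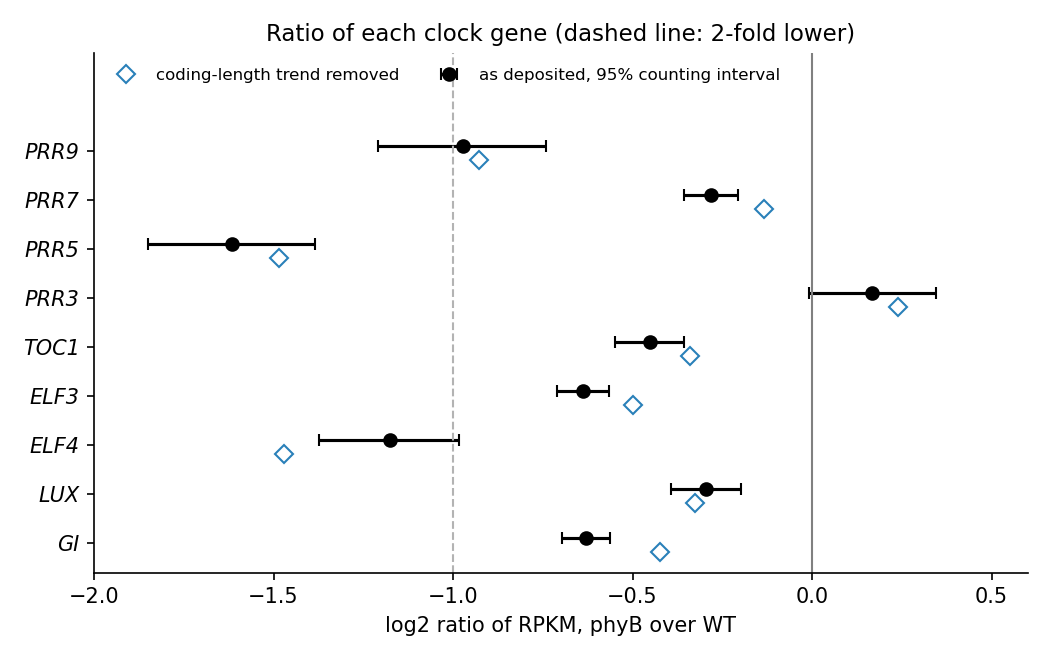
Log2 ratio of RPKM, phyB over WT, for each clock gene. Black points are the values as deposited with exact 95% counting intervals, and open diamonds are the values with the trend on coding length removed. The dashed line marks 2-fold lower. PRR5 at -1.61 and ELF4 at -1.18 lie beyond it, PRR9 at -0.97 lies beside it and PRR3 at 0.17 lies right of 0.

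The ratio followed coding length over all genes, with short genes higher and long genes lower in phyB, so lengths matter when clock genes are compared. ELF4 with 336 nt is among the short genes, and GI with 3522 nt among the long ones. A smooth trend over all genes stood at 0.29 for ELF4 and at -0.21 for GI. With the trend removed, the log2 ratio of ELF4 was -1.47 and that of PRR5 -1.48, so that both were about equally low. PRR9 was then at -0.93, ELF3 at -0.50, GI at -0.42, TOC1 at -0.34, LUX at -0.32, PRR7 at -0.13 and PRR3 at 0.24. The same 8 genes stayed below 0 and the same 2 at 2-fold or more, where 50.4% and 2.58% of all genes were. Over all genes, 450 were then 2-fold higher and 498 lower in phyB, against 617 higher and 421 lower with the trend left in.

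**Figure D4:**
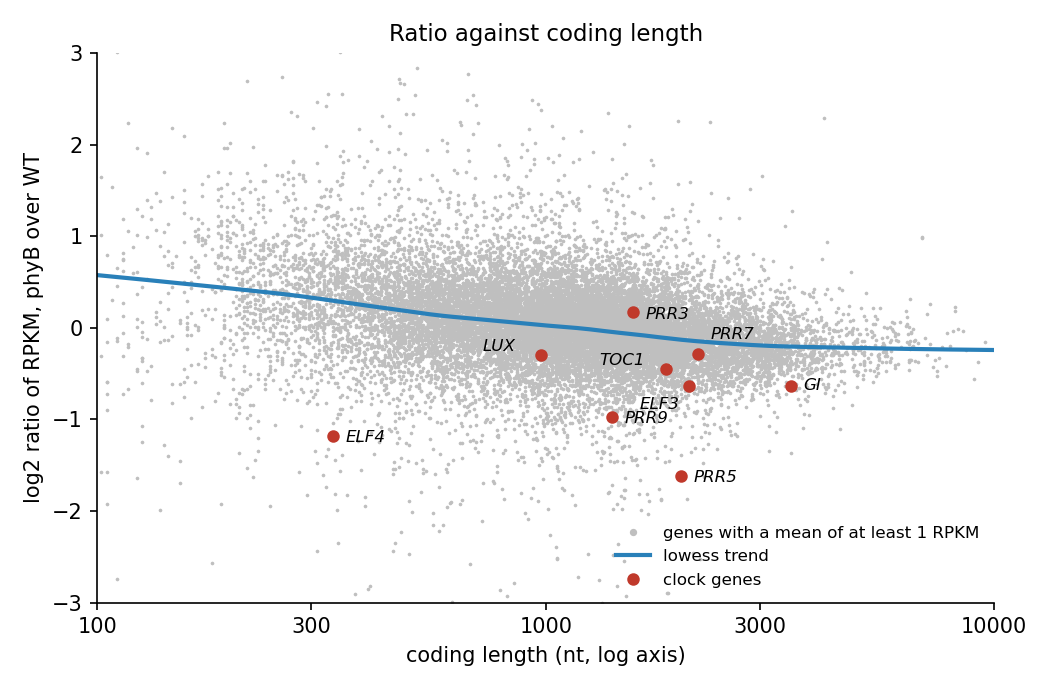
Log2 ratio of RPKM, phyB over WT, against coding length in nt on a log axis for genes averaging 1 RPKM or more (grey). The blue line is the lowess trend and red points are the clock genes. The axes leave out 57 genes with an absolute ratio over 3 and 54 genes shorter than 100 or longer than 10000 nt. All clock genes but PRR3 and PRR7 lie clearly below the trend, ELF4 at 336 nt and PRR5 at 2004 nt the farthest.

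Clock genes outside these 9 split by kind. All 14 morning MYB, REVEILLE and LNK genes had ratios below 0, with a median log2 ratio of -0.65. At least 2-fold lower were 3 (RVE1, RVE3 and LNK3), and only the counting interval of RVE1 lay wholly beyond 2-fold. Over all genes the shares were 51% below 0 and 2.18% at least 2-fold lower. RVE1, which links the clock to auxin, was the lowest at 9.55 RPKM in phyB and 36.6 RPKM in WT (log2 ratio -1.94), and LNK3, of a family of coactivators of RVE8, was at 15.7 RPKM in phyB and 33.9 RPKM in WT (-1.11). Both overlap a gene on the opposite strand. RVE3, named after its values were seen, had only 38 reads in phyB and 98 in WT (-1.35), and overlaps AT1G01510 on the same strand. In contrast, the 16 relatives and protein regulators had 8 ratios below 0 and 8 above, a median of 0.07 and none at 2-fold.

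Within that group the closest relatives of the evening complex differed in sign. BOA, the sister gene of LUX, was at 10.5 RPKM in phyB and 15.9 RPKM in WT (log2 ratio -0.59), and shares only 9 stretches of 36 nt with LUX. Of the 4 ELF4-like genes, EFL1 was at 0.64, EFL3 at 0.53, EFL2 at 0.36 and EFL4 at -0.19 on the log2 ratio scale, unlike ELF4 at -1.18, and the counting interval of EFL4 held 0. BOA and EFL1 overlap a gene on the opposite strand. These 4 genes have 330 to 378 nt of coding sequence, close to the 336 nt of ELF4, and with the length trend removed EFL1 was at 0.38, EFL3 at 0.23, EFL2 at 0.09 and EFL4 at -0.48. The intervals of EFL1, EFL2 and EFL3 then held 0 and that of EFL4, from -0.75 to -0.21, lay below it. The F-box genes that act on TOC1, PRR5 and the CDF factors had ZTL at -0.02, LKP2 at -0.06 and FKF1 at -0.24, and with the length trend removed ZTL was at 0.09, LKP2 at 0.05 and FKF1 at -0.13. SKIP, a splicing factor and the most abundant gene of the group, was at 94.0 RPKM in phyB and 113.1 RPKM in WT (-0.27). With the length trend removed SKIP was at -0.16. SKIP overlaps AT1G77170 on the same strand, and FKF1 and LKP2 each overlap a gene on the opposite strand. The relatives other than SKIP were named after their values were seen.

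Of 11 genes described as outputs of PRR proteins, the evening complex or GI, 8 averaged 1 RPKM or more. Every ratio of the 8 was negative, with a median log2 ratio of -1.19, and 5 of them (PIF4, PIF5, CDF1, CBF2 and CBF3) passed 2-fold. Over all genes 51% had a ratio below 0 and 2.18% were at least 2-fold lower. The counting interval lay wholly beyond 2-fold for PIF4 and PIF5. It reached back inside 2-fold for CDF1 (-1.41 to -0.84), CBF2 (-1.86 to -0.68) and CBF3 (-2.99 to -0.90). PIF5 was at 26.6 RPKM in phyB and 67.3 RPKM in WT (-1.34), PIF4 at 25.7 RPKM in phyB and 61.1 RPKM in WT (-1.25), and CDF1, a repressor of flowering that GI and FKF1 remove, had 45.9% of its WT level in phyB (-1.12). The cold-response genes CBF2 at -1.26 and CBF3 at -1.88 had few reads, 36 and 11 in phyB against 87 and 41 in WT, and were named after their values were seen. PIF4 and PIF5 are known as genes that PRR proteins and the evening complex repress. Here they were lower, as were 4 of the 5 PRR genes and all 3 evening-complex genes. Whether these ratios are linked was not tested. CBF1, CO and FT were under 1 RPKM on average and are not described. Of 4 other clock-controlled genes, COR28, a cold-induced gene that feeds back on the clock, was at 2.80 RPKM in phyB and 6.66 RPKM in WT (-1.25). COR27 was at 3.21 RPKM in phyB and 6.40 RPKM in WT, while the RNA-binding protein genes GRP7 and GRP8 had log2 ratios of 0.19 and 0.30. With the length trend removed GRP7 was at 0.03, GRP8 at 0.13, COR27 at -1.08 and COR28 at -1.35.

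**Figure D5:**
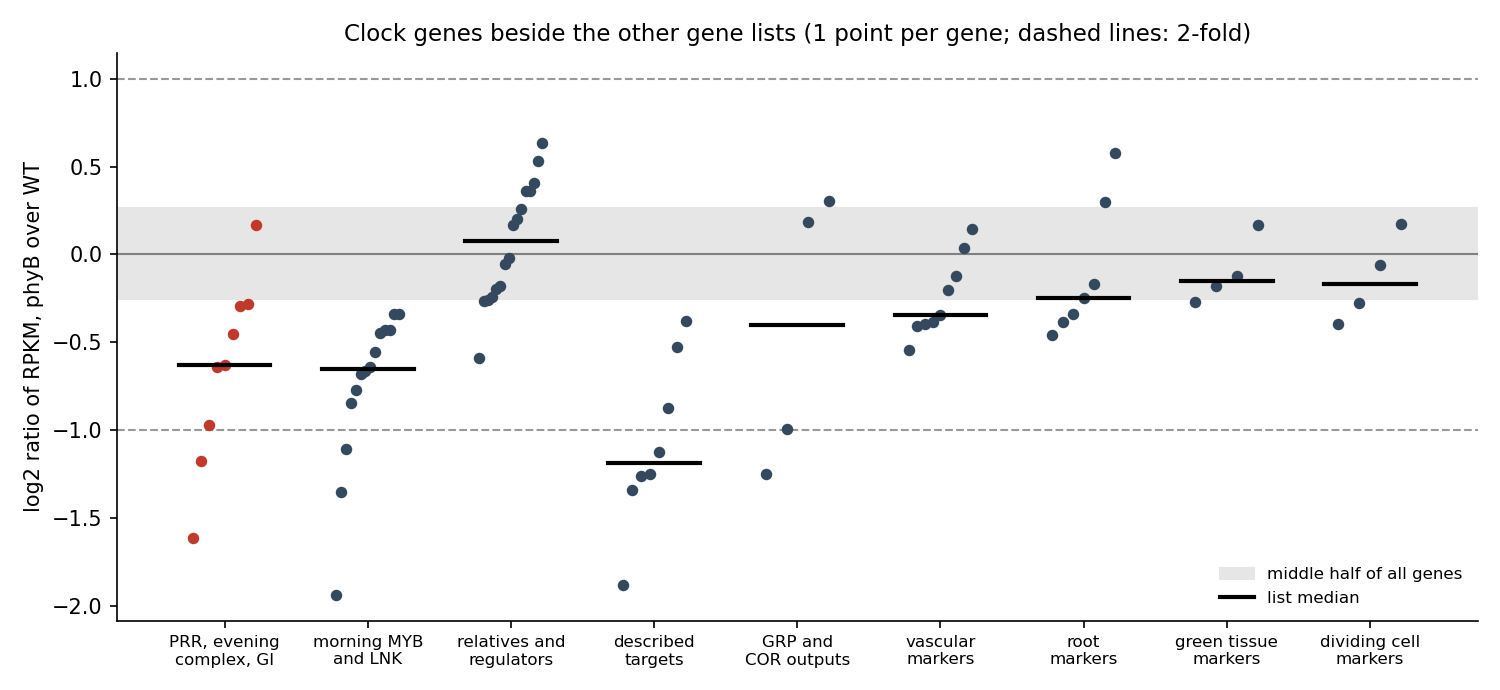
Log2 ratio of RPKM, phyB over WT, with 1 point per gene and a bar at the median of each list. The grey band holds the ratios from the lower to the upper quartile of all genes, -0.25 to 0.26, and dashed lines mark 2-fold. Clock genes of the PRR family, evening complex and GI (red) have a median of -0.63, close to the morning genes at -0.65, while their relatives and regulators centre at 0.07 and the 4 marker lists between -0.35 and -0.15.

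The vascular markers had a median log2 ratio of -0.35, the root markers -0.25, the dividing-cell markers -0.17 and the green-tissue markers -0.15. With the length trend removed these medians were -0.20 for vascular, -0.12 for root, -0.19 for dividing-cell and -0.17 for green-tissue markers. Their most abundant genes were XCP2 at -0.12, PYK10 at -0.46, KNOLLE at -0.06 and RBCS1A at 0.17. Whether tissue composition plays a part in the ratios of the clock genes was not tested.

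Genes that carry the motifs of the clock genes were described apart from the 9. Of the 563 other genes with an evening element within 250 bases before and 50 after the start, 3.55% were at least 2-fold lower, with a median log2 ratio of -0.03. Over the 1342 other genes with an evening element in the 1000 bases before the start, the median log2 ratio was -0.05 and 2.91% were at least 2-fold lower, against -0.01 and 2.19% over all 18546 genes with such a window. In the same 1000 bases, 3.37% of the genes with a G-box, 2.85% with the core, 2.48% with the PBE-box, 2.41% with the CCA1-binding site, 2.09% with the A form of the LUX-binding site and 2.05% with its T form were at least 2-fold lower. In the shorter window the share was 4.14% for the G-box, 3.54% for the A form, 3.13% for the PBE-box, 2.81% for the core, 1.78% for the CCA1-binding site and 1.48% for the T form. The 7 medians lay between -0.07 and 0.00 in the longer window and between -0.08 and 0.02 in the shorter one.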

How the data were processed

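Seedling mRNA was selected with oligo(dT) beads, per the labels' protocols. The deposited values are estimated counts (reads per gene model, with 0.5 written by the authors for 0 reads, set back to 0 here) and RPKM by the authors, which equal the reads divided by coding length and column total. TAIR10 is the only build named, per the submitters' processing notes. How reads were aligned and counted, and whether a column pools both samples, was not given in the sources used here. Values have no SD.

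Members, lists (70 entries in 8 lists), motifs and alternatives were chosen with earlier results of these data known. Ratios are log2 of RPKM, phyB over WT, without a pseudocount. For the ratio alone, a column with 0 reads was set to 3 reads. None of the 9 clock genes had 0 reads in a column, but the counts over all genes include such genes. Genes averaging 1 RPKM or more were counted. Intervals are exact 95% intervals from reads and totals (Clopper-Pearson for ratios, Poisson for levels, conditional odds ratio for pairs; scipy 1.17.1). Those for ratios and levels were tested on simulated reads with counting error only, which is the error they assume. That checks the computation and not whether real reads vary in this way. The trend on log2 coding length was a lowess fit (span 0.3, statsmodels 0.14.6). Alternatives used edgeR 4.0.16 for scaling factors only. Positions, overlaps and sequences came from RefSeq genes on TAIR10.1, in which 26719 of 27206 nuclear models had a gene. The comparison of proteins was not run, since no protein table was used here. Named besides the members were, per list, up to 4 genes at 2-fold or more with at least 5 RPKM in a genotype, or else the most abundant. Other genes were named after their values were seen. One upstream sequence is not reported here.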

Additional observations from a re-analysis of the deposited data

How the results depend on the processing

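Against 617 genes at least 2-fold higher and 421 lower in phyB, the log2(RPKM + 1) scale gave 374 higher and 247 lower. For genes averaging 5 RPKM or more these were 321 higher and 197 lower. Without a filter the counts were 1685 higher and 1156 lower. They include genes with 0 reads in a column, which was set to 3 reads for the ratio. Where the other column had fewer than 3 reads, the sign of the ratio is turned. The unfiltered counts are therefore not numbers of genes truly higher or lower in phyB. A limit of 1.5 on the absolute log2 ratio left 211 higher and 160 lower, and 244 higher and 195 lower had a counting interval beyond 2-fold. Removal of the length trend gave 450 and 498, which turns the split. The same number of the 9 clock genes, 8, was below 0 in each setting, but only 4 settings (the length trend, both pseudocounts and quantile normalization) move these genes unequally. At least 2-fold lower were 2 of them, but 1 (PRR5) at an absolute log2 ratio of 1.5 or with the interval beyond 2-fold. Their median was -0.42 with the length trend removed and between -0.63 and -0.58 otherwise. The length trend moved 5 of the 9 clock genes out of their counting intervals, and the log2(RPKM + 1) scale moved 1. Of the others, 4 leave the ratios as they are and 5 add a constant, 0.0463 at most with upper-quartile factors, so stability under them is built in. That constant is larger than the ratio of ZTL, which it turns positive. The intervals under other scalings, the 1000-base window, the 150 bases of PRR5 and the sum of PRR9 with AT2G46670 were chosen after seeing the data. No paired analysis was possible because the columns of values bear no replicate numbers. Leaving out a replicate was not run for the same reason. The interval of PRR3 held 0 as reported and excluded it with the length trend removed, upper-quartile factors or median scaling.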
